A study of Rattus norvegicus with 64 samples.

Results

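The vascular endothelial growth factor (VEGF) and angiopoietin genes form the signalling core of blood and lymph vessel growth. Of the 15715 rat genes that could be named on the array, 10 belong to this group, and all 10 were found. Their members are the ligands Vegfa, Vegfb, Vegfc and Pgf with the receptors Kdr, Flt1 and Flt4, and the ligands Angpt1 and Angpt2 with their receptor Tek. They were chosen by the annotated transcript of each array feature, without regard to signal, and were covered by 15 of the 30367 gene features. Vegfa had 4 features, Flt4 and Pgf had a pair each, and the other genes had 1. For genes with several features, the feature with the highest mean signal stands for the gene, and the others are given beside it.

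Expression was measured in rat bladders that had lost part of their wall to hemicystectomy and were augmented with a graft. Bladder acellular matrix (BAM), the protein scaffold left when a bladder is stripped of its cells, was implanted alone or after seeding with ASCs, the mesenchymal stromal cells obtained from fat. Total RNA came from the reconstructed wall at 7, 30, 90 and 180 days of follow-up, and each of the 8 combinations of graft and day was represented by 8 arrays, 64 in all, each for the bladder of a different animal. All animals were male Wistar rats of a syngeneic stock, the ASCs came from retroperitoneal fat of male Wistar rats, and both grafts involved the same surgery and matrix. The ASCs were grown to the third passage in medium with serum and basic fibroblast growth factor, itself an angiogenic factor. After seeding, the matrix with its cells was kept in such medium for 7 days, and the paper describes no such culture for BAM alone. The seeded graft thus differs from BAM in the cells and in the culture of cells and matrix before surgery. Unoperated bladder wall was not analysed here. The files do not tell implanted cells from host cells.

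All levels below are log2 processed signals minus the 75th percentile of the same array, so a level of 0 is the 75th percentile and a difference of 1 is a change by a factor of 2. A gene was called different where limma's moderated test, fitted over all 30367 features and 64 arrays, gave an adjusted p below 0.01 and the fold change exceeded 1.5. Kdr, Vegfa, Vegfc, Pgf and Flt4 gave signals well above background on all 64 arrays, Angpt1 on 63, Angpt2 on 62, Vegfb on 61, Flt1 on 60 and Tek on 54. Each slide carried the 8 arrays of 1 group, so a group cannot be told apart from its slide. There were 2 scan dates, 1 for the early arrays (7 and 30 days) and 1 for the late arrays (90 and 180 days), so a change between 30 and 90 days cannot be told apart from scan date. Local background rose with it, from group means of 43.4 to 50.4 intensity units at the early days to 108.2 to 345.3 at the late days, where BAM at 90 days was highest. On 3 arrays of BAM seeded with ASCs at 7 days, replicates 5, 6 and 7, Vegfb was not above background, and the calls that rest on these arrays are given with and without them.

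VEGF-A is released by many cell types under low oxygen and drives the sprouting of blood vessels through Kdr on endothelial cells. Flt1 binds VEGF-A, VEGF-B and placental growth factor, the product of Pgf, and often acts as a trap that limits signalling through Kdr. VEGF-C acts through Flt4, best known from lymphatic endothelium, where it drives growth of lymph vessels. Angiopoietin 1, made largely by cells around the vessel, activates Tek and keeps vessels stable, whereas angiopoietin 2, made by activated endothelium, can oppose it and loosens vessels before they sprout or regress. A graft without vessels depends on this system for its blood supply as it is populated from the bladder.

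The 4 members below, chosen after their values were seen among those called in a time step and with a sequence window, are shown with their upstream sequence from the RefSeq annotation of GRCr8, 5′ to 3′ on the gene's strand and ending at the annotated start of the gene. RefSeq windows were found for 7 of the 10 genes, all except Angpt1, Angpt2 and Tek. Capitals mark GC boxes, the letters GGGCGG on either strand, which are sites known for the transcription factor SP1.
Kdr (chr14:32571813-32572030, plus strand): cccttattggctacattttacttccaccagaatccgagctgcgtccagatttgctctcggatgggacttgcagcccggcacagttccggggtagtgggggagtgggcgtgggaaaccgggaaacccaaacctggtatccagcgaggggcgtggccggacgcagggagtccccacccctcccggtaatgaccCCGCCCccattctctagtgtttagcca
Pgf (chr6:110557748-110557997, minus strand): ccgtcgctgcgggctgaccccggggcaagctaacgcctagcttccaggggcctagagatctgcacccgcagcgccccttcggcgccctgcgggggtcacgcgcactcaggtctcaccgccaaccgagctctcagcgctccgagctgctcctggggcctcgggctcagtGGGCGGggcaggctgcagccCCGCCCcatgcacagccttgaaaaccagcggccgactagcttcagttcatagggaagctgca
Vegfc (chr16:44560888-44561137, minus strand): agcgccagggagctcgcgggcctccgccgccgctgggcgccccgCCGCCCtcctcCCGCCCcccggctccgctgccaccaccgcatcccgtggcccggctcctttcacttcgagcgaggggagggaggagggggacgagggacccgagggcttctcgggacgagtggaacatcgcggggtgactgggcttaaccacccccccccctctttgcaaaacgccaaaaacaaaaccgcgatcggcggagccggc
Flt4 (chr10:34414584-34414833, plus strand): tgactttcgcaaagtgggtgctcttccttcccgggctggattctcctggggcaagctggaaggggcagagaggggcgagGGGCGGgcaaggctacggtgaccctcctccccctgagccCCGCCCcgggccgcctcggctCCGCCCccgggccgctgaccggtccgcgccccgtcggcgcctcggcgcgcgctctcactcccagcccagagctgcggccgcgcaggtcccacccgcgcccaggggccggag
The Kdr sequence holds 1 GC box, those of Pgf and Vegfc hold 2 each, and that of Flt4 holds 3. GC boxes were present in windows of 250 bases before an annotated start of all 7 genes with a window, in 7 of 8 windows. They were present in 30.5% of all 33469 windows of that length. The window of Flt1 and the second window of Vegfa lie wholly inside the gene, past its outermost annotated start. Those of Kdr and Vegfb run past that start, with 218 and 148 of their 250 bases before it. Among the 8 windows, TATAAA, the TATA box, was found in that of Flt1 alone, against 12.9% of all windows. ACGTG, the core of the element bound by the hypoxia-inducible factors, was found in none of the 8, against 16.6% of all windows. CCGGAAG, a site of the ETS factors common in endothelial genes, was also found in none of the 8, against 7.3%. Both strands were searched, none of these motifs contains another, and a match or its absence says only which letters the windows hold.

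In bladders reconstructed with BAM only, the Kdr level at 7 days ran from 2.57 to 3.77 with a median of 3.38. With ASCs, the arrays of 7 days ran from 2.38 to 3.00 with a median of 2.61. Arrays of the seeded grafts thus filled the lower part of the range, and 4 of 8 lay below every array of BAM. The difference was -0.68 (SE 0.17), 1.60-fold lower with ASCs (limma adjusted p = 0.00311). At 30 days the grafts overlapped almost entirely, with 1.34 to 2.69 around a median of 2.15 for BAM and 1.34 to 2.62 around 1.90 with ASCs. They also overlapped at 90 days, with 1.18 to 2.58 (median 1.87) against 1.17 to 2.04 (median 1.69). At 180 days the order was turned. BAM ranged from 1.53 to 1.98 with a median of 1.78, and the seeded grafts from 1.98 to 2.59 with a median of 2.34, so that 7 of 8 lay above every BAM array. That difference, 0.54 (SE 0.17), 1.45-fold, was short of both thresholds (adjusted p = 0.0529). It passed both under normexp background correction (0.66, limma adjusted p = 0.0086).

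The change of the Kdr difference from 7 to 180 days was itself tested. It came to 1.21 (SE 0.24) with a limma adjusted p of 1.67e-04. It was called under each of the 11 alternative settings, with values of 1.05 to 1.41, and without any single array of the 32 involved. Among those settings, the looser thresholds on the same fit could not have ended the call. Without the 3 arrays that lacked Vegfb signal it was 1.17 (adjusted p = 0.00114). The difference at 7 days alone was less secure. It missed the threshold under quantile normalization (-0.57, adjusted p = 0.0189), with the percentile taken over features detected on all arrays (-0.57, adjusted p = 0.0147), without BAM replicate 6 (adjusted p = 0.01003) or 7 (adjusted p = 0.0132), and without those 3 arrays together (-0.63, adjusted p = 0.0277).

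Over time, Kdr fell between 7 and 30 days with both grafts. In BAM the fall was 1.34 on the log2 scale, 2.54-fold (SE 0.17, limma adjusted p = 1.83e-08), and 7 of 8 arrays of 30 days lay below all arrays of 7 days. With ASCs it fell by 0.68 (SE 0.17, limma adjusted p = 0.0025), again with 7 of 8 arrays below all of 7 days, and the call was lost without replicate 1 of 30 days (adjusted p = 0.0114) but not without the 3 arrays (adjusted p = 0.00846). Between 90 and 180 days Kdr rose by 0.62 (SE 0.17) with ASCs (limma adjusted p = 0.00894). Leaving out any of 13 of the 16 arrays ended that call, with adjusted p up to 0.0311. Quantile normalization (0.54, adjusted p = 0.0272) and the percentile over detected features (0.53, adjusted p = 0.0298) ended it too. In BAM the same step was -0.11 (SE 0.17, adjusted p = 0.63). Ordered by mean, BAM at 7 days (3.31 ± 0.39, SD, n = 8) came first, followed by seeded grafts at 7 days (2.64 ± 0.23) and at 180 days (2.32 ± 0.21). These steps were larger than the SDs on either side, and the other 5 groups, with means of 1.69 to 1.97, were not separated from their neighbours by their spread.

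Flt1 was also lower with ASCs at 7 days. BAM arrays ran from -2.40 to -1.52 with a median of -1.91, and seeded arrays from -2.82 to -2.18 with a median of -2.58. Only the lowest BAM array fell into the range of the other group, and 7 of 8 seeded arrays lay below it. The difference of -0.65 (SE 0.18), 1.56-fold, gave a limma adjusted p of 0.00725. This call stood close to its threshold, since it was lost without any 1 of 13 of the 16 arrays, with adjusted p up to 0.0247. It was also lost under quantile normalization (-0.60, adjusted p = 0.0119), normexp, which left -0.56 (adjusted p = 0.00297) below the fold threshold, and the percentile over detected features (-0.54, adjusted p = 0.0294), as well as without the 3 arrays (-0.67, adjusted p = 0.0288).

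At 30 days the Flt1 difference was -0.28 (SE 0.18, adjusted p = 0.33). It was 0.27 (adjusted p = 0.224) after 90 days, then 0.22 (adjusted p = 0.728) after 180 days. At 90 days BAM arrays spanned -3.28 to -1.85 and seeded arrays -3.34 to -1.74, and the BAM values are weak, with 5 of 8 well above background. The change of the difference from 7 to 90 days was 0.91 (SE 0.25, limma adjusted p = 0.00958). Leaving out any 1 of 25 of its 32 arrays ended that call, with adjusted p up to 0.0225. It was also lost without the 3 arrays (0.93, adjusted p = 0.0224) and under normexp (0.70, adjusted p = 0.0101). The percentile over detected features left 0.86 (adjusted p = 0.0177), and a fit of the compared groups alone an adjusted p of 0.0254. No time step of Flt1 was called in either graft, and the means of all 8 groups lay within 0.73 of each other with no gap between neighbours beyond their SDs.

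For Flt4, at 7 and 30 days the grafts differed by -0.20 (SE 0.17, adjusted p = 0.459) and -0.06 (adjusted p = 0.843). From 30 to 90 days all 8 arrays moved above all arrays of 30 days in both grafts, from -2.88 to -2.56 up to -1.95 to 0.09 in BAM and from -3.14 to -2.38 up to -2.20 to -1.55 with ASCs. The rises were 1.48 (SE 0.17, 2.80-fold, limma adjusted p = 3.4e-11) and 0.88 (SE 0.17, limma adjusted p = 1.57e-05). This is the step that spans the scan dates, and it was seen for 44.7% of all features in BAM and 28.1% with ASCs as calls in either direction. The second Flt4 feature was well above background on all arrays at 7 and 30 days but on 1 of 32 at the late days, so it gives no level there. Its graft difference at 7 days was -0.81 (adjusted p = 0.057), not called.

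At 90 days Flt4 was lower with ASCs. BAM arrays had a median of -1.40 and seeded arrays of -1.90, and 3 seeded arrays lay below all of BAM. The difference was -0.67 (SE 0.17, 1.59-fold, limma adjusted p = 0.00183). BAM replicate 5, the highest array at 0.09, carried part of it, and without that array the difference was -0.48 (adjusted p = 0.00949), below the fold threshold. Normexp correction gave -0.48 (adjusted p = 0.0159), and a fit of the 16 arrays alone left an adjusted p of 0.0393. At 180 days the difference was 0.20 (SE 0.17, adjusted p = 0.735), and its change from 90 to 180 days was 0.87 (SE 0.23, limma adjusted p = 0.00511). That call was lost without BAM replicate 3 or 5 at 90 days, BAM replicate 5 at 180 days, or seeded replicate 7 or 8 at 180 days, with adjusted p of 0.0104 to 0.0127. It was also lost under quantile normalization (0.73, adjusted p = 0.0311) and the percentile over detected features (0.76, adjusted p = 0.0139). A fit of the compared groups alone left an adjusted p of 0.0401.

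**Figure D1:**
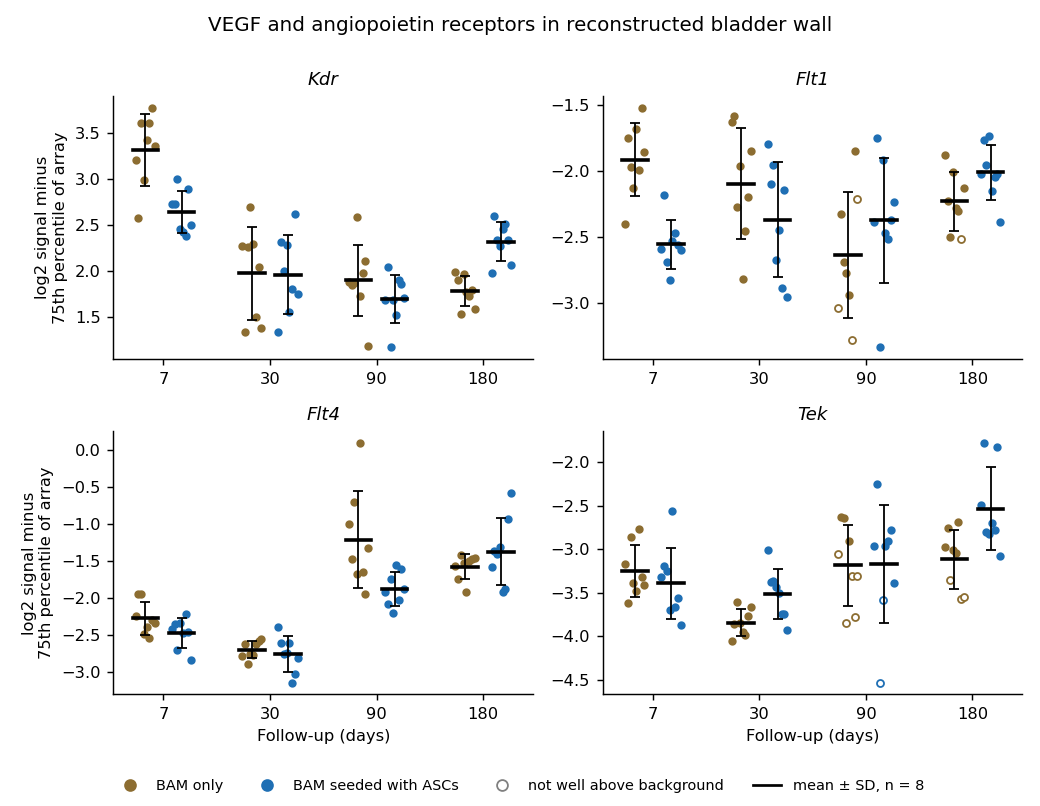
Scaled log2 level of Kdr, Flt1, Flt4 and Tek on each of the 64 arrays by day and graft, with mean ± SD of 8 arrays; hollow points are not well above background. For Kdr the seeded grafts lie lower at 7 days (2.38 to 3.00 against 2.57 to 3.77) and higher at 180 days (1.98 to 2.59 against 1.53 to 1.98).

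Among the ligands, Vegfa differed little between the grafts. Its BAM arrays ran from 1.20 to 2.41 at 7 days and its seeded arrays from 1.43 to 1.79. Its differences over the 4 days were -0.12, 0.13, 0.35 and 0.20 (SE 0.18 each), with adjusted p of 0.69, 0.676, 0.102 and 0.769. A pair of further Vegfa features gave 0.44 (adjusted p = 0.06) and 0.62 (adjusted p = 0.03) at 90 days and 0.48 (adjusted p = 0.095) and 0.60 (adjusted p = 0.084) at 30 days, without passing the thresholds. The dimmest Vegfa feature was above background on 39 arrays, 7 of them at the late days. Between 30 and 90 days Vegfa fell in BAM by 0.71 (SE 0.18, limma adjusted p = 4.19e-04), and 7 of 8 arrays of 90 days lay below all of 30 days. With ASCs the same step was -0.48 (adjusted p = 0.0191). The second Vegfa feature was not called over the BAM step (-0.30, adjusted p = 0.167), nor was the third (-0.55, adjusted p = 0.0304). All of these steps span the scan dates.

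Vegfb, which acts through Flt1, gave the largest difference of the group and the least evenly distributed one. Its seeded arrays at 7 days split into 5 between -0.89 and 0.21 and 3 at -8.13, -7.93 and -7.92, where both Vegfb spots were at background. BAM arrays ran from -1.20 to 0.31. Over all arrays the difference was -2.98 (SE 0.74, limma adjusted p = 0.00263). Leaving out replicate 5, 6 or 7 ended that call, with adjusted p of 0.015 to 0.0155, and without all 3 the difference was -0.09 (SE 0.31, adjusted p = 0.866). The rise of 3.23 from 7 to 30 days with ASCs (limma adjusted p = 9.88e-04) likewise became 0.34 (adjusted p = 0.424). On these 3 arrays, 2 of the 30367 features, Vegfb and an unnamed one, lay more than 3 below the other 5 arrays. For 7 other genes of the same chromosomal neighbourhood, the 3 arrays differed from the other 5 by -0.09 (Stip1) to 0.24 (Bad). At 30, 90 and 180 days the Vegfb differences were 0.02, 0.09 and 0.08 (SE 0.74), and adjusted p was 0.931 or more. That SE comes from 1 spread shared by all 8 groups and is widened by the 3 arrays. The SD was 4.01 in seeded grafts at 7 days and 0.20 to 0.81 in the other groups.

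Vegfc, the ligand of Flt4, fell after 7 days with both grafts. In BAM it ran from 0.19 to 0.62 at 7 days and from -0.61 to 0.19 at 30 days, and with ASCs from 0.01 to 0.60 and from -0.41 to -0.02. All 8 arrays of 30 days lay below all arrays of 7 days in each graft. The fall was 0.66 in BAM (SE 0.14, limma adjusted p = 4.21e-04) and 0.48 with ASCs (SE 0.14, adjusted p = 0.0106), the latter short of both thresholds. Between the grafts Vegfc differed by -0.17, 0.01, -0.19 and 0.27 over the 4 days, all with adjusted p of 0.296 or more. Its level with ASCs at 90 and 180 days each held 1 array far from the rest.

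Pgf, whose product was named for the placenta and which is raised in wounds and inflamed tissue, followed a course that turned back. In BAM it fell from -0.55 to 0.60 (median 0.22) at 7 days to -1.14 to -0.39 (median -0.90) at 30 days. With ASCs it fell from -0.41 to 0.22 (median -0.24) to -1.38 to -0.50 (median -0.91). All 8 seeded arrays and 7 of 8 BAM arrays of 30 days lay below all of 7 days. The falls were 1.05 (SE 0.18, limma adjusted p = 6.92e-06) and 0.72 (SE 0.18, limma adjusted p = 0.00181). From 90 to 180 days, within one scan date, Pgf rose by 0.89 in BAM (SE 0.18, limma adjusted p = 6.82e-05) and by 0.67 with ASCs (SE 0.18, limma adjusted p = 0.00565). The second rise was lost without any 1 of 6 of its 16 arrays. It was also lost under quantile normalization (0.61, adjusted p = 0.013) and the percentile over detected features (0.58, adjusted p = 0.0187). Both rises were lost in fits of the compared groups alone (adjusted p = 0.0185 and 0.0108). At 180 days Pgf ran from -0.48 to 0.60 in BAM and from -0.35 to 0.78 with ASCs, and the grafts differed by 0.07 (SE 0.18, adjusted p = 0.997). The difference at 7 days was -0.39 (adjusted p = 0.122). The second Pgf feature was above background on 1 of 32 late arrays and gives no level there.

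Of the angiopoietins, Angpt2 was highest in BAM at 7 days, from -2.09 to -1.12 with a median of -1.60. With ASCs it ran from -2.73 to -1.24 with a median of -2.23, and 4 arrays lay below all of BAM. The difference of -0.61 (SE 0.22) had an adjusted p of 0.0483 and was not called. By 30 days BAM had fallen to -3.01 to -2.01, by 1.09 (SE 0.22, limma adjusted p = 1.94e-04), with 7 of 8 arrays below all of 7 days. The seeded grafts moved from a mean of -2.17 to -2.67, by -0.50 (adjusted p = 0.0824). In the order of means, BAM at 7 days (-1.56 ± 0.35, SD, n = 8) and the next group, seeded grafts at 180 days (-1.95 ± 0.34), lay further apart than either SD, and no other neighbours did. BAM at 90 days (-2.01 ± 0.85) spread widely enough to overlap BAM at 7 days.

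For Angpt1, at 7 and 30 days group means lay between -2.52 and -2.12, and at 90 and 180 days between -1.78 and -1.24. All 8 seeded arrays of 90 days (-1.51 to -0.96) lay above all of 30 days (-2.81 to -1.74), a rise of 1.05 (SE 0.18, limma adjusted p = 3.91e-06). BAM rose by 0.73 (SE 0.18, limma adjusted p = 4.66e-04), with 7 of 8 arrays above, and that call was lost in a fit of the compared groups alone (adjusted p = 0.0123). These steps span the scan dates. At 90 days Angpt1 was 0.51 higher with ASCs (SE 0.18, adjusted p = 0.0276), short of both thresholds, and it passed both when BAM replicate 5 was left out (0.61, adjusted p = 0.00908). On the other days the grafts differed by -0.29, 0.19 and -0.02.

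The difference Angpt2 minus Angpt1 on the same array has no meaningful zero, but its change between groups does not depend on the scaling of the array. It fell in BAM from 0.56 ± 0.50 (SD, n = 8) at 7 days to -0.14 ± 0.37, -0.22 ± 0.58 and -0.78 ± 0.40 at 30, 90 and 180 days, and with ASCs from 0.24 ± 0.52 to -0.34 ± 0.63, -0.83 ± 0.34 and -0.69 ± 0.35. Seeded minus BAM, it was -0.32 (SE 0.26), -0.21 (SE 0.26), -0.61 (SE 0.24) and 0.09 (SE 0.19) over the 4 days. At 7 days it was -0.29 (SE 0.33) without the 3 arrays. No test was run on this angiopoietin difference, and its changes between the early and late days span the scan dates.

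Tek, the receptor of both, was the dimmest member. At 7 days BAM ran from -3.62 to -2.77 and seeded grafts from -3.87 to -2.57, with a difference of -0.14 (SE 0.21, adjusted p = 0.706). At 30 days 5 of 8 seeded arrays lay above all BAM arrays, but the difference of 0.33 (SE 0.21) had an adjusted p of 0.308. At 180 days, with BAM at -3.58 to -2.69 and ASCs at -3.07 to -1.78, it was 0.58 (SE 0.21, adjusted p = 0.103), and Tek was above background on 5 of 8 BAM arrays and all 8 seeded arrays. The rise of 0.66 in BAM from 30 to 90 days (SE 0.21, limma adjusted p = 0.00469) rests on 3 of 8 arrays above background at 90 days, and was lost without BAM replicate 2, 3 or 5 of that day (adjusted p = 0.0106 to 0.0153), under normexp (0.57, below the fold threshold) and under quantile normalization (0.47, adjusted p = 0.104).

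**Figure D2:**
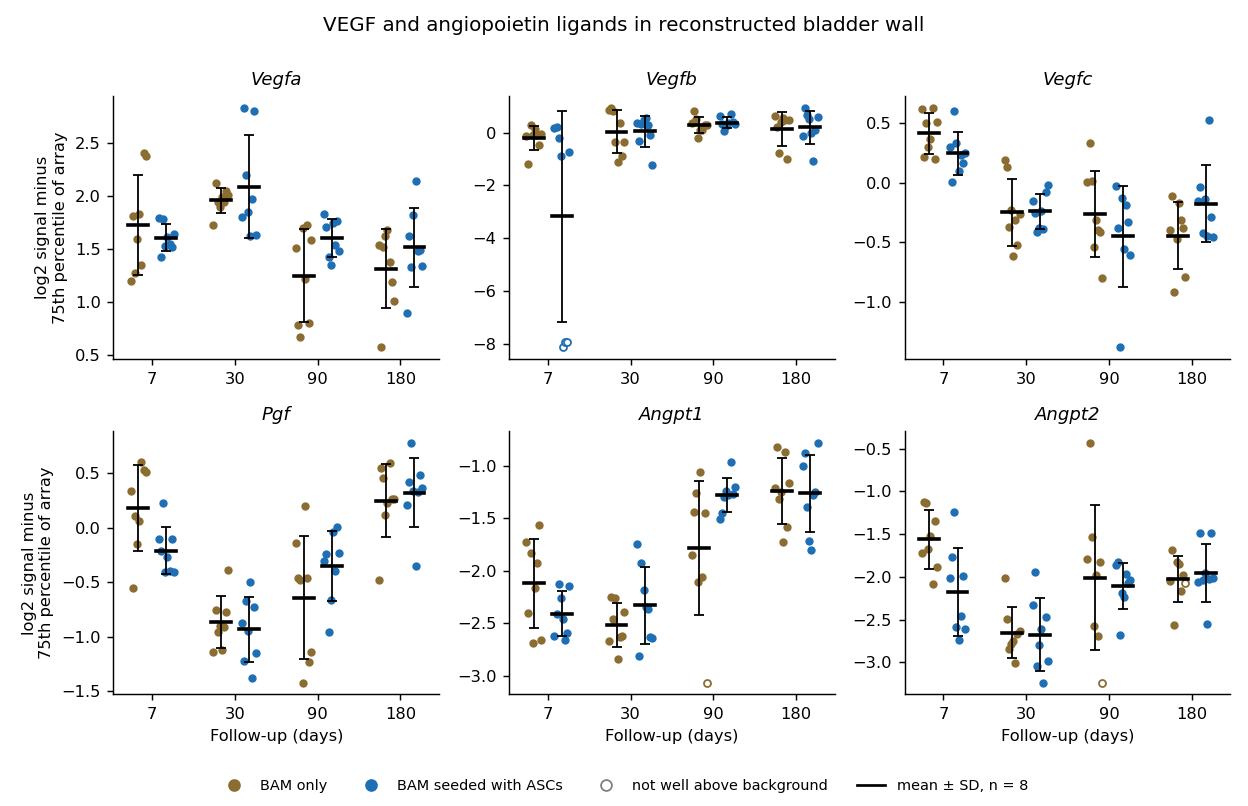
Scaled log2 level of the 6 ligand genes on each of the 64 arrays by day and graft, with mean ± SD of 8 arrays; hollow points are not well above background. Vegfb shows 3 seeded arrays of 7 days near -8, Pgf is lowest at 30 days, and Angpt1 is higher at 90 and 180 days than at 7 and 30 days.

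Counted together, 3 of the 10 members were called between the grafts at 7 days, all lower with ASCs (Vegfb, Kdr and Flt1), where 7.73% of all features were called and 5.62% were called lower. The count was 0 without the 3 arrays that lacked Vegfb signal, against 4.68% of features. In that fit the difference was -0.09 for Vegfb, but -0.63 (SE 0.20) for Kdr and -0.67 (SE 0.21) for Flt1, near their sizes with all arrays. At 30 days 0 members were called by limma, against 1.67% of features, and 0 had an unadjusted p below 0.05. At 90 days 1 was called (Flt4, lower), against 12.5%. At 180 days 0 were called, against 2.44%, and 2 had an unadjusted p below 0.05 (Kdr and Tek). A two-way analysis of variance, run here as contrasts of the 8 group means without limma's moderation, also called 0 at 30 and 180 days. The median difference of the 10 members was -0.34, -0.00, 0.05 and 0.20 over the 4 days, beside -0.16, 0.11, -0.27 and 0.06 for all features, which quantile normalization brought to between -0.03 and 0.02. Means were higher with ASCs for 0, 5, 6 and 9 of the 10 genes. Quantile normalization and normexp correction each turned 4 of these 40 signs, none of a called gene.

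**Figure D3:**
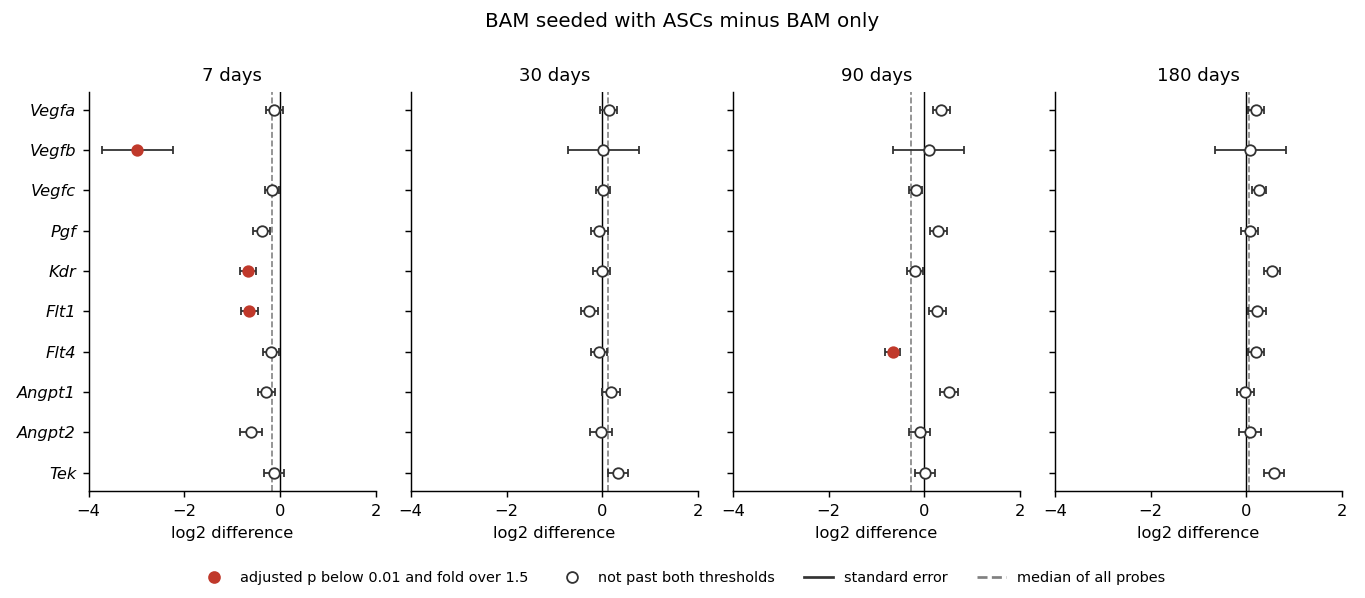
Log2 difference, BAM seeded with ASCs minus BAM only, for the 10 genes at each day, with bars of 1 SE from the limma fit; filled points passed an adjusted p of 0.01 and a fold of 1.5, and the dashed line is the median of all features. All 10 points lie below 0 at 7 days, when Vegfb (-2.98), Kdr (-0.68) and Flt1 (-0.65) are filled, and Flt4 (-0.67) alone is filled at 90 days.

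Over time, 4 members fell in BAM from 7 to 30 days (Kdr, Angpt2, Pgf and Vegfc), where 8.65% of all features were called and 4.21% were called lower. With ASCs 3 were called over that step (Kdr and Pgf lower, Vegfb higher), against 8.06%, and 2 without the 3 arrays, against 5.13%. From 30 to 90 days 4 were called in BAM (Flt4, Angpt1 and Tek higher, Vegfa lower), against 44.7%, and 2 with ASCs (Flt4 and Angpt1), against 28.1%. From 90 to 180 days 1 was called in BAM (Pgf), against 9.39%, and 2 with ASCs (Pgf and Kdr), against 4.14%. The graft comparisons share no arrays among themselves, but each time step shares its arrays with the neighbouring steps and with the graft comparisons.

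The tests of change in the graft difference called Flt1 from 7 to 90 days (5.83% of all features), Kdr from 7 to 180 days (8.48%) and Flt4 from 90 to 180 days (9.79%). They called 0 members by limma from 7 to 30 days (0.985% of features), 30 to 90 days (9.99%) and 30 to 180 days (2.51%), where 2, 2 and 1 members had an unadjusted p below 0.05, and the two-way analysis of variance called 0 too.

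Of a list of blood endothelial markers, 12 were on the array, among them Pecam1, Vwf, Cdh5, Emcn and Cldn5. At 7 days their mean level was -0.11 ± 0.21 (SD, n = 8) in BAM against -0.55 ± 0.22 with ASCs. The 30-day means were -1.0 ± 0.14 against -0.89 ± 0.17, and the 90-day means -0.60 ± 0.25 against -0.74 ± 0.37. After 180 days the order was turned, with -0.64 ± 0.13 against -0.25 ± 0.24. At 7 days 11 of the 12 had lower means with ASCs and 1 was called, Vwf, the adhesive protein stored in endothelial cells (-1.0, limma adjusted p = 1.23e-05). At 30 days 0 were called by limma. At 90 days 2 were lower with ASCs, Cdh5, the endothelial cadherin (-0.87, limma adjusted p = 0.00395), and Sox17, which was above background on 1 of the 16 arrays, so no fold is given. At 180 days all 12 had higher means, and 0 were called. The change of the graft difference from 7 to 180 days was called for 7 of the 12, with a median of 0.94 over the list beside 0.24 for all features. Without the 3 arrays Vwf was still called at 7 days (-0.98, limma adjusted p = 2.34e-04), but the change to 180 days was called for 3 of the 12 (Vwf, Cdh5 and Erg), with a median of 0.82. In BAM 9 of the 12 fell from 7 to 30 days, with a list median of -0.92. From 30 to 90 days, across the scan dates, 10 of the 12 had higher means in BAM and 4 were called higher, and with ASCs 2 were called higher (Emcn and Cldn5), while Kdr was not called over that step (-0.08 and -0.26). Relative to the median of all features the marker differences were -0.27, -0.00, 0.13 and 0.33 over the 4 days, so the sign at 30 and 90 days depends on the scaling. Whether the amount of endothelium accounts for the course of Kdr was not tested, and in bulk tissue fewer endothelial cells and less RNA per cell cannot be told apart. Set against the mean of these markers on the same array, the Kdr difference was -0.24 (SE 0.11), -0.12 (SE 0.24), -0.06 (SE 0.19) and 0.15 (SE 0.10) over the 4 days, and -0.29 (SE 0.10) at 7 days without the 3 arrays.

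**Figure D4:**
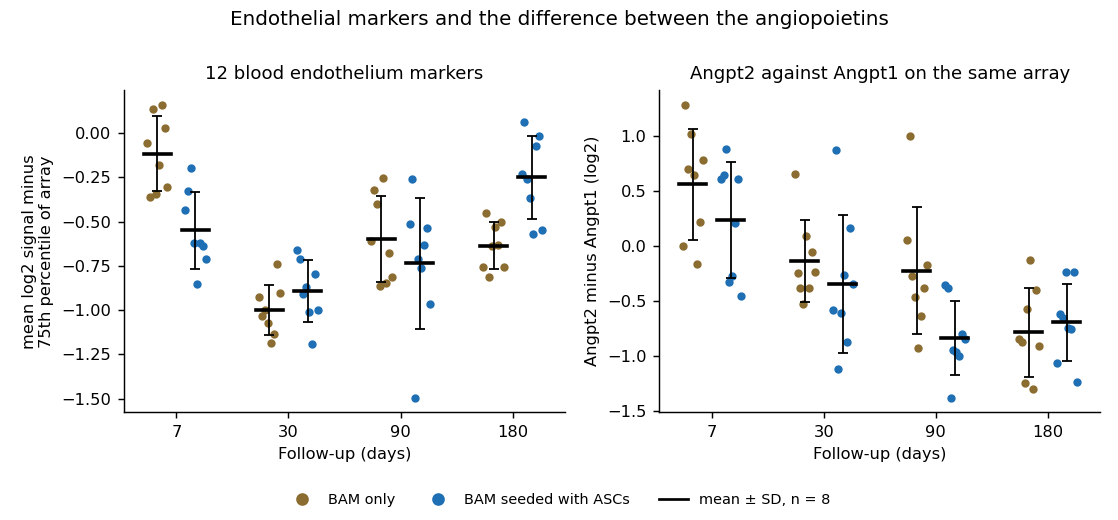
Left, the mean log2 level of 12 blood endothelium markers on each array, and right, Angpt2 minus Angpt1 on the same array (log2), by day and graft with mean ± SD of 8 arrays. The endothelial mean is lower with ASCs at 7 days (-0.55 against -0.11) and higher at 180 days (-0.25 against -0.64). The angiopoietin difference is lower at 180 than at 7 days with both grafts (-0.78 against 0.56 in BAM, -0.69 against 0.24 with ASCs). That change spans the scan dates.

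Of 10 partners of the pathway on the array, among them the co-receptors Nrp1 and Nrp2 and the endothelial nitric oxide synthase Nos3, 0 were called between grafts at 7, 30 or 180 days by limma. At 90 days 1 was called, Vegfd, the other ligand of Flt4, which was above background on 2 of the 16 arrays compared, so no fold is given. In BAM Nos3 fell with Kdr from 7 to 30 days, by 1.59 (SE 0.22, limma adjusted p = 9.43e-08). It was the only 1 of the 10 partners called over that step, and 5 of the 10 had higher means. The list median was -0.11, beside -0.06 for all features.

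Genes that VEGF induces, or that mark the tip and stalk cells of a sprout, numbered 15. At 7 days 2 were lower with ASCs, Apln, a peptide secreted by tip cells (-1.27, limma adjusted p = 0.00807), and Hey1, a target of Notch signalling (-0.81, limma adjusted p = 0.00189). Without the 3 arrays Hey1 was still called (-0.85, limma adjusted p = 0.00924) and Apln was not (-1.10, adjusted p = 0.0762). The list medians were -0.39 at 7 days and 0.24 at 180 days. At 90 days Rcan1, an inhibitor of calcineurin induced by VEGF, was higher (0.60, limma adjusted p = 0.0053), and Dll4, the Notch ligand of tip cells, was lower (-0.93, limma adjusted p = 2.86e-04), but with a signal above background on 6 of 16 arrays. Pdgfb was also called lower, though above background on none of those arrays. At 180 days 1 was called, Hey1 (0.78, limma adjusted p = 0.00674), above background on 7 of 16 arrays. In BAM 4 fell from 7 to 30 days, the apelin receptor Aplnr (-1.94), Notch4 (-1.42), Apln (-1.39) and Plvap (-0.80).

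Of 9 genes of the hypoxia response, which induces Vegfa, 1 was called lower with ASCs on each of 3 days, while Vegfa was called on no day. They were the hypoxia-inducible factor Epas1 at 7 days (-0.85, limma adjusted p = 0.00158), the mitochondrial Bnip3 at 30 days (-0.91, limma adjusted p = 0.00126) and the carbonic anhydrase Car9 at 90 days (-0.76, limma adjusted p = 0.00154), Car9 with 3 of 16 arrays above background. Epas1 was not called without the 3 arrays (-0.70, adjusted p = 0.0367). At 180 days 0 were called by limma. Means were higher with ASCs for 3, 5, 6 and 4 of the 9 genes over the 4 days. The list medians were -0.23, 0.04, 0.09 and -0.12, beside -0.16, 0.11, -0.27 and 0.06 for all features. Among 7 pericyte and vascular smooth muscle genes, Pdgfrb was lower with ASCs at 7 days (-0.69, limma adjusted p = 0.00633), all 7 means were lower that day, and 4 of 7 fell in BAM from 7 to 30 days. Pdgfrb was not called without the 3 arrays (-0.58, adjusted p = 0.0724). Of 5 lymphatic genes, Pdpn was higher with ASCs at 30 days (0.80, limma adjusted p = 0.00245). The lymphatic regulator Prox1 was above background on 3 of 64 arrays, so the lymphatic list is a weak guide to Flt4.

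Other tissue components differed between the grafts on the same days. At 7 days 6 of 8 urothelial markers were higher with ASCs, with a median of 2.05, led by the uroplakins Upk2 (2.87), Upk1a (2.36) and Upk3a (2.28). Without the 3 arrays 4 of 8 were called, these 3 and Upk1b, with a list median of 1.96. Their mean per array ran from -2.76 to 2.51 in BAM and from 1.21 to 3.07 with ASCs. At 90 days 3 of 9 bladder smooth muscle genes were higher with ASCs, Myh11 (1.09), Actg2 (1.00) and Tagln (1.00). Of 12 leukocyte markers 1 was called, Fcgr2b, lower at 30 days (-0.97), and none of the striated muscle or fat cell markers was called between grafts by limma. The part of these components in the differences of the 10 genes was not tested.

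After the group means were taken off, the members did not all deviate with the endothelium from array to array. Over the 64 arrays, Pearson's r with the mean of the 12 endothelial markers was 0.69 for Tek, 0.63 for Angpt2, 0.61 for Vegfc and 0.53 for Pgf. For Kdr it was 0.34, for Flt4 0.16 and for Vegfa -0.11. The genes whose deviations were most like those of Kdr, of 5220 genes well above background on all arrays, were Ly6e (r = 0.74, Spearman's rho 0.66), Irf7 (0.69, 0.63) and Mx1 (0.69, 0.61), all known for induction by interferon. These 3 genes were not called in any comparison between grafts. Those most like Angpt2 were Pecam1 (r = 0.68), Cd93 (0.67) and Pcdh19 (0.67), of which the first and second are proteins of the endothelial surface. Those most like Vegfa were Ewsr1 (0.72), Gnl3 (0.71) and Srsf7 (0.71), genes of RNA processing and the nucleolus. The arrays of a group share a slide and a scaling, so these values are a description with no test.

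**Figure D5:**
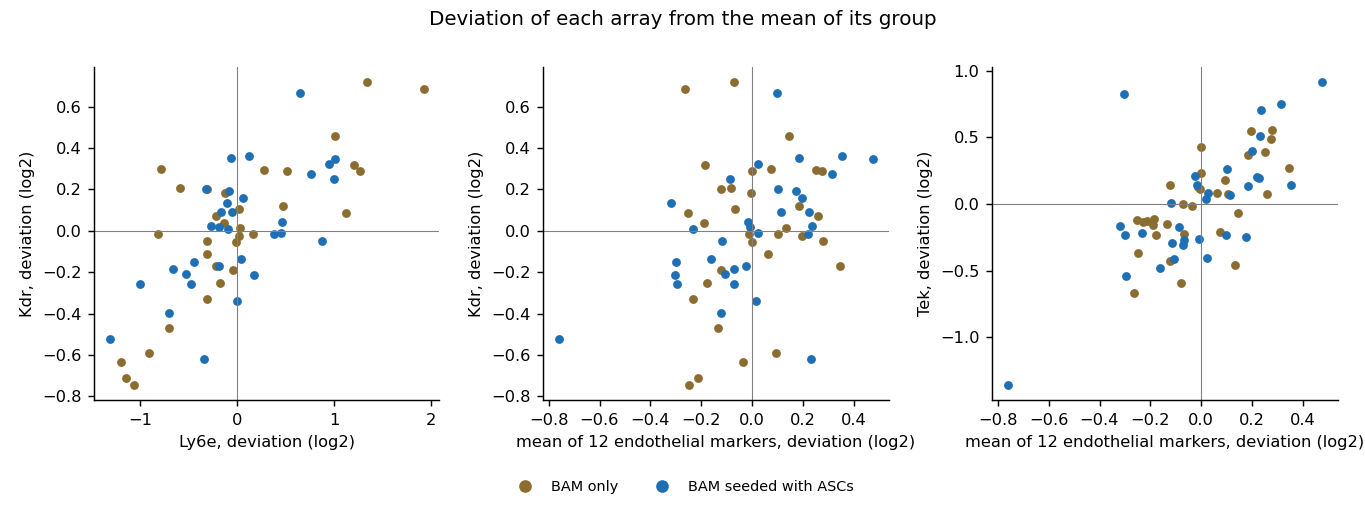
Deviation of each of the 64 arrays from the mean of its group (log2) for Kdr against Ly6e (left), Kdr against the mean of 12 endothelial markers (middle) and Tek against the same mean (right). The points follow a tighter line for Kdr with Ly6e (r = 0.74) and for Tek with the markers (r = 0.69) than for Kdr with the markers (r = 0.34).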

How the data were processed

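Gene expression was measured with 1-colour Agilent SurePrint G3 rat arrays in 64 reconstructed bladder walls, 8 arrays in each of 8 groups, taken from the labels. The deposited files hold spot intensity values that the authors extracted with Agilent Feature Extraction 12.0.1.1, background-subtracted (processed signal), for 62976 spots an array, 58717 of them gene spots. The deposited series table holds processed signals that are neither logged nor scaled. On the log2 scale they matched those of the scanner within 0.01 in 61 of 64 columns. The other 3, replicates 2 to 4 of BAM seeded with ASCs at 7 days, differed by medians of -3.30 to -3.31. The series table was logged, scaled to its own 75th percentile and used as an alternative.

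Here the 75th percentile of an array's gene spots was taken off its log2 processed signals, which were averaged over the spots of each of 30367 features, leaving out spots marked as outliers. By RefSeq accession, 18758 features were named, through the annotation of GRCr8. Groups were compared with limma 3.58.1 (R 4.3.3; lmFit and eBayes) in 1 fit over all 64 arrays, with Benjamini-Hochberg adjustment over all features. Calls needed an adjusted p below 0.01 and a fold above 1.5, the methods' thresholds. Fits were tested on simulated data, and tables and plots were made with Python 3.11.15. Well above background means that at least 0.5 of a feature's spots were so marked by the scanner software. A scanner's intensities give no read depth, and the number of arrays limits the precision.

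Alternatives were normexp background correction (offset 50), quantile normalization, a percentile over the 8583 features detected on all arrays, the series table, outlier spots kept, the replicate number as a block, the methods' two-way analysis of variance, a fit of the compared groups alone, dim features left out, other thresholds, any feature of a gene, and each array left out in turn. Leaving out the 3 arrays without Vegfb signal was added after the data were seen. The members, gene lists and tests were chosen with earlier results of these data known. Named genes are all 10 members, at most 3 called genes a list and direction in each graft comparison, and for Kdr, Vegfa and Angpt2 the 3 genes with the most similar deviations. Nos3 and the genes of time steps were named after their values were seen.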

Additional observations from a re-analysis of the deposited data

Results flagged for a closer look

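Among the 80 sets of 8 arrays, 1 for each gene and group, 3 held an array far from the others, and chance alone marks about 1 in 20 such sets. Vegfc was -1.37 on replicate 3 of BAM seeded with ASCs at 90 days, where the nearest array was at -0.60. It was 0.52 on replicate 6 of that graft at 180 days, with the nearest at -0.03. Pgf was -0.48 on BAM replicate 1 at 180 days, with the nearest at 0.12, and that array is the one with 26650 empty spots in the series table. Neither gene was called between grafts on those days.

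Of 60 tests of a change in the graft difference between days, 3 passed the thresholds. Of all features, 0.985% to 9.99% passed, depending on the days compared. The Kdr difference changed by 1.21 from 7 to 180 days, from lower to higher with ASCs (8.48% of features called). The Flt1 difference changed by 0.91 from 7 to 90 days (5.83% called), a call lost without any 1 of 25 of its 32 arrays. The Flt4 difference changed by 0.87 from 90 to 180 days (9.79% called), a call lost without any 1 of 5 of its 32 arrays.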

How the results depend on the processing

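No member turned its direction as a call under any alternative. Counts of called members (of 10) that moved by over 1.5 times were as follows. Normexp correction gave 0 at 90 days, 1 at 180 days and 2 for the change in graft difference from 7 to 180 days. Quantile normalization gave 1 at 7 days, 2 for BAM and 0 for seeded grafts from 90 to 180 days, and 0 for the change in difference over that step. The percentile over detected features gave 1 at 7 days, and 0 for seeded grafts from 90 to 180 days and for the changes in difference from 7 to 90 and from 90 to 180 days. Fits of the compared groups alone gave 0 at 90 days, 0 for BAM and 1 for seeded grafts from 90 to 180 days, and 0, 2 and 0 for the changes in difference from 7 to 90, 7 to 180 and 90 to 180 days. Leaving out dim features gave 2 from 7 to 180 days. An adjusted p below 0.05 with no minimum fold gave 2 at 90 days, 2 for BAM from 90 to 180 days, 5, 5 and 4 for the seeded steps, and 3, 3, 1 and 2 for the changes in difference from 7 to 90, 7 to 180, 30 to 90 and 90 to 180 days. Without the 3 arrays lacking Vegfb signal the counts were 0 at 7 days, against 4.68% of features, and 0 for the change from 7 to 90 days, against 4.65%. Shares of all features under the other settings are not given here, so those counts describe the members only. The cause of these moves was not tested.

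With the replicate number as a block, the change in difference from 7 to 180 days gave 2 members, Kdr and Flt1, and no other count moved by over 1.5 times. The numbers share no animal, and deviations of same-numbered arrays correlated by -0.02 to 0.03 on average, 11 of 64 arrays correlating best with their own number.

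Leaving out 1 array at a time gave 1 to 3 calls at 7 days, 1 to 1 at 90 days, 3 to 6 for BAM from 30 to 90 days and 1 to 2 from 90 to 180 days. Seeded grafts gave 2 to 3, 2 to 3 and 0 to 3 over their steps. The changes in difference gave 0 to 1 from 7 to 90, 1 to 2 from 7 to 180 and 0 to 2 from 90 to 180 days. Signal over background limits Tek, Flt1 and the second features at 90 and 180 days.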

Other observations

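Among pairs of the 10 genes, deviations from the group mean over the 64 arrays correlated most for Vegfc and Angpt2 (Pearson's r = 0.53, Spearman's rho 0.44) and for Pgf and Tek (0.47, 0.45). They ran against each other for Vegfa and Angpt1 (-0.47, -0.45) and for Kdr and Flt4 (-0.33, -0.39). Flt4 deviated with the bladder smooth muscle markers (r = 0.64) and Kdr against them (r = -0.56). Pgf followed the pericyte and vascular smooth muscle list (r = 0.69). These are descriptions over arrays that share a scaling, with no test.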
